A study of Mus musculus with 9 samples.

Results

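Prl2c2, Prl2c3 and Prl2c5 are proliferin genes of the prolactin family and lie close together on mouse chromosome 13. They are 3 of 53700 genes in the count table and were selected on measured values, their large fall in Valine and Val+PA cells relative to Control cells. The values they were chosen by are the log2 fold changes for Valine against Control, which were -4.93 for Prl2c2, -4.63 for Prl2c3 and -1.91 for Prl2c5. These falls are therefore given as a description, without a test, and the same holds for Val+PA against Control, which shares the Control libraries. The comparison of Val+PA with Valine was not used directly for the choice and was tested, though the choice used the libraries of both groups.

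Proliferin, also called mitogen-regulated protein, is a secreted glycoprotein hormone first found in mouse fibroblasts that had been stimulated to divide by serum or growth factors. In the mouse placenta it is made by trophoblast giant cells and acts on blood vessel growth. It binds the mannose 6-phosphate receptor, and in cultured mouse myoblasts it is known as an inhibitor of muscle differentiation.

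RNA was sequenced from C2C12, a mouse myoblast line that fuses into myotubes when serum is withdrawn. The Val+PA group had 12 h of starvation in OPTI-MEM, a low-serum medium, then 0.45 mM of the branched-chain amino acid valine for 24 h and 75 µM of the saturated fatty acid palmitic acid for 12 h. The Valine group had the same starvation and then 0.45 mM valine for 36 h. The Control group was collected at the end of the 12 h starvation and had neither agent. All 3 groups share the line and the starvation, and each has 3 libraries, all taken from 1 plate of 6 wells, so that a p-value reflects variation between wells of a plate. Valine and Val+PA wells were collected later than Control wells and sat on other plates. The effects of valine, palmitic acid, time and plate on any value below cannot be told apart.

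The libraries held 26750226 to 35976589 counts each. A single count equals 0.0271 to 0.0403 CPM, the level used below, which is the count relative to the size of its library after scaling by TMM factors. Control 3 and Val+PA 2 lay away from their groups on the second principal component, at -21.9 and -46.3, which held 16.7% of the variance. Their level of the mitochondrial transcript mt-Co1 was 1230 and 865 CPM, against 2930 to 5300 CPM in the other 7 libraries. These same libraries had the lowest proliferin counts of their groups, and the main values are given with and without them. Of 12 myoblast markers 11 were expressed well enough to be tested, and their summed level was 4090 to 6140 CPM in Val+PA, 4300 to 4520 CPM in Valine and 3060 to 3330 CPM in Control. Des (means of 2400, 1950 and 1230 CPM, in that order) and Itga7 (1450, 1250 and 770 CPM) were its largest parts. Of the 11, 5 rose, 1 fell and 5 did not pass in Valine against Control (edgeR quasi-likelihood, adjusted p below 0.05). Of all genes tested, 20.8% rose and 21.1% fell. Among 18 trophoblast markers 7 had no count in any library, namely Gcm1, Cdx2, Prl3d1, Prl3b1, Ctsq, Psg17 and Psg21. Peg10 carried the trophoblast sum, with means of 71.8 CPM in Val+PA, 80.1 CPM in Valine and 75.4 CPM in Control, and the other 17 markers together came to 1.47 to 2.03 CPM in Val+PA, 1.44 to 1.99 CPM in Valine and 1.61 to 2.19 CPM in Control. Of 6 keratinocyte markers, markers of the skin, where proliferin has also been found, Krt1 had no count and Krt5 had 1 in all. Their sum was 7.76 to 11.5 CPM in Val+PA, 7.5 to 8.12 CPM in Valine and 11.5 to 12.2 CPM in Control. Krt14 carried it, with means of 8.55, 5.79 and 9.94 CPM in that order.

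The 3 genes are near-identical copies. On GRCm38 chromosome 13, in the GENCODE M21 annotation, Prl2c3 (ENSMUSG00000056457) spans 12790816 to 12800079 on the minus strand. Prl2c2 (ENSMUSG00000079092) spans 12996125 to 13005383, also on the minus strand. Prl2c5 (ENSMUSG00000055360) spans 13182715 to 13191923 on the plus strand, and all 3 fit in 401 kb. Their main transcripts are 842, 857 and 844 bases long for Prl2c2, Prl2c3 and Prl2c5. Prl2c2 and Prl2c3 match at 99.5% of aligned bases and differ at 4, whereas Prl2c5 differs from Prl2c2 at 28 and from Prl2c3 at 30. A stretch of 150 bases, the length of 1 read, taken from Prl2c2 occurs unchanged in another gene in 353 of 693 positions (50.9%), and one from Prl2c3 in 353 of 708 (49.9%). For Prl2c5 it does so in 0 of 695, a count of exact matches only. The sources used here do not say how the authors' counting treated reads that match several copies. The summed count of all 3 is therefore the main measure, and the split between Prl2c2 and Prl2c3 is uncertain.

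The stretch just before the gene start shows how alike and how different the copies are outside the transcript. The RefSeq promoter table for GRCm38.p6 holds 2 of the 3 genes, and the 250 bases before the start are printed 5′ to 3′ for Prl2c3 (chr13:12800080-12800329, minus strand) and Prl2c5 (chr13:13182466-13182715, plus strand). Capitals mark the only match to TGANTCA, a relaxed form of the binding site of AP-1, the FOS and JUN dimer, and the aligned bases of the other copy.
Prl2c3: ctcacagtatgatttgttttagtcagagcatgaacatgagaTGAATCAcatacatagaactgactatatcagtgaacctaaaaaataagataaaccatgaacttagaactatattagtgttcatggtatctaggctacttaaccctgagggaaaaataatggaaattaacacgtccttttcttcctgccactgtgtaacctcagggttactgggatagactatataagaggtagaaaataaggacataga
Prl2c5: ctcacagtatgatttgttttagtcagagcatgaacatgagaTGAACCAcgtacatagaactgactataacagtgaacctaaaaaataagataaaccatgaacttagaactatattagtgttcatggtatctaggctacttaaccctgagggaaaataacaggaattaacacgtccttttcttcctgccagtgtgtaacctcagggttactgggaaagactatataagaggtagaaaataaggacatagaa

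The 2 windows were identical at 96.8% of aligned bases, with 8 substitutions. Counted from 1 at the 5′ end of the window, with the base of Prl2c3 first, they are T46C, A50G, T69A, T160C, G161A, A163G, C191G and T216A. The first of them lies inside the AP-1 letters, so that Prl2c3 has TGAATCA at positions -209 to -203 from the start and Prl2c5 has no match to TGANTCA on either strand. The motifs were chosen after the sequences had been seen, were searched on both strands and did not overlap. Both copies hold AGATAA, a form read by GATA factors, at -163 to -158. Both hold the TATA-like TATAAGA, at -28 to -22 in Prl2c3 and -29 to -23 in Prl2c5, and neither holds AGAACA, the core letters of a glucocorticoid receptor site. Among 32851 promoter windows of the same length in the table, 6.75% held TGANTCA, 9.99% AGATAA, 2.21% TATAAGA and 16.1% AGAACA. A match is a string of letters, not a site shown to be bound.

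Summed over the copies, proliferin RNA was abundant in starved C2C12 myoblasts and scarce after the treatments. The sum was 1705, 641 and 1232 counts in Val+PA libraries 1, 2 and 3, and 1691, 1659 and 1424 counts in Valine. In Control it was 37641, 50456 and 19153 counts. Every Val+PA and Valine library lay below every Control library, by a wide gap. As a level the sum averaged 35 ± 13.2 CPM in Val+PA, 45.3 ± 3.29 CPM in Valine and 1170 ± 382 CPM in Control (SD, n = 3 each). It took 0.00201% to 0.00474% of all counts in Val+PA, 0.00428% to 0.00494% in Valine and 0.0716% to 0.154% in Control. The fitted log2 difference was -4.69 (SE 0.31) for Valine against Control, a level 25.8-fold lower, and -5.06 (SE 0.32) for Val+PA against Control, 33.4-fold lower. In RNA from whole wells, fewer cells that express proliferin and less proliferin RNA per cell cannot be told apart.

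**Figure D1:**
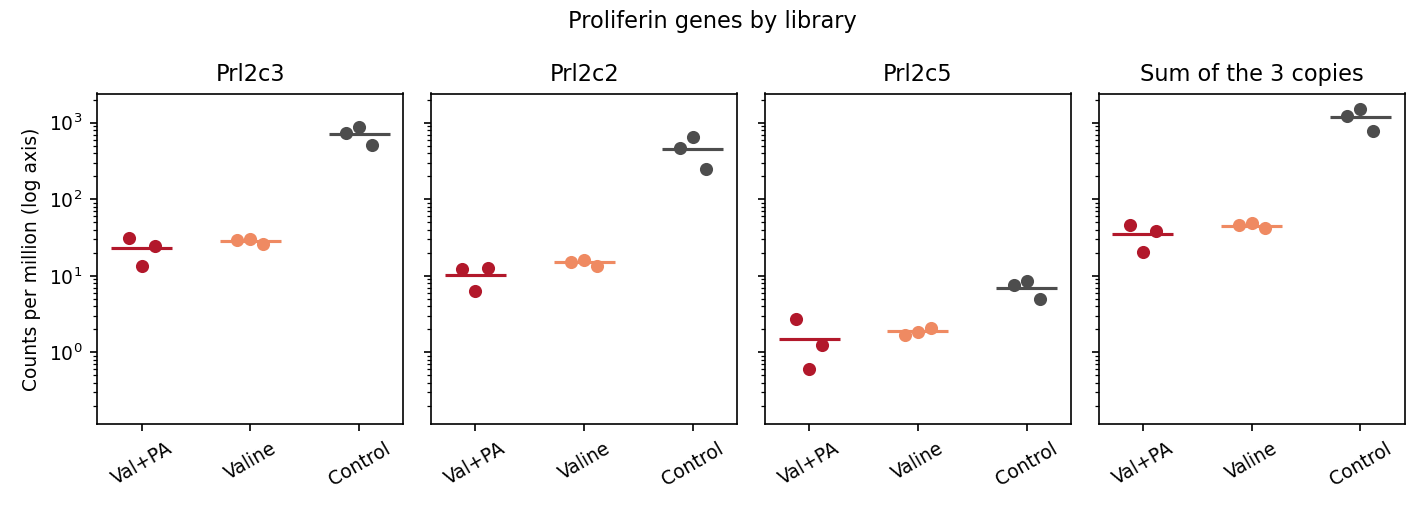
Level of each proliferin gene and of their sum in every library, in CPM on a log axis (points are libraries, lines are group means), with Val+PA left, Valine in the middle and Control right. Control points of the sum lie between 771 and 1530 CPM, above all Val+PA points (20.5 to 46.3 CPM) and Valine points (41.7 to 48.2 CPM).

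Prl2c3, the copy with the most counts, had 1161, 423 and 784 counts in Val+PA, 1070, 1035 and 896 in Valine and 22765, 28805 and 12783 in Control. These are levels of 31.5, 13.5 and 24.2 CPM in Val+PA, 29.1, 30.1 and 26.3 CPM in Valine and 730, 875 and 515 CPM in Control. Val+PA 2 and Control 3 were low within their groups, and the Control values stood clear of both treated groups. The log2 difference from Control was -4.63 (SE 0.29) in Valine and -4.93 (SE 0.29) in Val+PA.

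Prl2c2, which encodes the proliferin first described, had 445, 199 and 408 counts in Val+PA, 559, 560 and 457 in Valine and 14643, 21370 and 6245 in Control. Its level was 12.1, 6.37 and 12.6 CPM in Val+PA, 15.2, 16.3 and 13.4 CPM in Valine and 469, 649 and 252 CPM in Control. Each Val+PA library was below each Valine library, and both groups were far below Control, where the libraries differed most from each other. The log2 difference from Control was -4.93 (SE 0.35) in Valine and -5.46 (SE 0.36) in Val+PA, or 30.5-fold and 44-fold lower.

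Prl2c5 was the rare copy, with 99, 19 and 40 counts in Val+PA, 62, 64 and 71 in Valine and 233, 281 and 125 in Control. In CPM it measured 2.69, 0.608 and 1.24 in Val+PA, 1.68, 1.86 and 2.08 in Valine and 7.47, 8.54 and 5.03 in Control. The treated libraries again lay below the Control libraries, but by a smaller factor than for the abundant copies. Its log2 difference from Control was -1.91 (SE 0.37) in Valine, 3.75-fold lower, and -2.2 (SE 0.38) in Val+PA, 4.58-fold lower. Without Val+PA 1 the difference for Val+PA against Control was -2.92. All 3 genes had group values that did not overlap, with both treated groups lower. Among all 18415 genes tested, that held for 29.2% in Valine against Control and for 22.1% in Val+PA against Control (59% and 45.5% in either direction), and the choice of the genes fixed it for these 3.

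For Valine against Control, Prl2c2 ranked 9 and Prl2c3 ranked 15 among the 18415 genes when these are ordered by the fall, and Prl2c5 ranked 250. A log2 difference of -4 or lower, which Prl2c2 and Prl2c3 had, was seen in 20 genes (0.109%) for Valine against Control and in 22 genes (0.119%) for Val+PA against Control. Prl2c5 lay near -2, which 212 genes (1.15%) reached for Valine and 231 genes (1.25%) for Val+PA. Prl2c5 thus fell less far than the first pair, though further than most genes. These ranks describe the values by which the genes were chosen. Among the 12396 genes with a mean of at least 2 CPM, the largest falls in Valine were those of Prr9 (-6.91), Gm7040 (-6), Prl2c2, Prl2c3 and Serpinb9e (-4.06).

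The authors' normalized signal, which is also relative to gene length, allows the copies to be compared with other genes of the same library. Prl2c3 averaged 35.4 ± 13.8 in Val+PA, 43.9 ± 3.29 in Valine and 1070 ± 304 in Control on that scale (SD, n = 3 each). Prl2c2 averaged 19.8 ± 6.66 in Val+PA, 28.8 ± 2.94 in Valine and 864 ± 399 in Control. Prl2c5 stood at 2.68 ± 1.88, 3.34 ± 0.336 and 12.2 ± 3.47 in Val+PA, Valine and Control. The order Prl2c3, Prl2c2, Prl2c5 was the same in all 3 groups, and the SDs of Prl2c3 and Prl2c2 overlapped in Control. Counted down from the highest signal in a library, Prl2c3 held place 2190, 4631 and 2818 in Val+PA, 2302, 2219 and 2532 in Valine and 79, 61 and 116 in Control. Prl2c2 held place 4265, 6621 and 4094 in Val+PA, 3475, 3261 and 3879 in Valine and 101, 68 and 228 in Control. These are places among 24604 to 26433 genes with a signal above 0, and both copies stood far further down in the treated libraries than in Control. Prl2c5 held place 10113 to 14629 in Val+PA, 10942 to 11622 in Valine and 5935 to 7881 in Control.

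The copies did not differ from Control by the same factor, and so their mix differed between groups. Prl2c5 made up 5.81%, 2.96% and 3.25% of the summed count in Val+PA, 3.67%, 3.86% and 4.99% in Valine and 0.619%, 0.557% and 0.653% in Control. The lowest exact 95% binomial bound in a treated library was 1.79%, in Val+PA 2, and the highest bound in a Control library was 0.777%. These intervals cover counting error only, and since the genes were chosen by their falls, the shares restate unequal falls and are a description. Set against Prl2c3 alone, Prl2c5 had 8.53%, 4.49% and 5.1% of its counts in Val+PA, 5.79%, 6.18% and 7.92% in Valine and 1.02%, 0.976% and 0.978% in Control. The Control ratios lay close together although the summed level in CPM differed 1.99-fold among those libraries. Whether some reads of Prl2c3 were counted under Prl2c5 was not tested. The fall and the share of Prl2c5 are uncertain to that extent. Counts were also divided by the part of each transcript that no other gene shares, an alternative that weighs the copies by their own bases. The mean share of Prl2c5 was then 2.06% in Val+PA, 2.14% in Valine and 0.307% in Control, lower in each group and again higher in the treated groups.

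Prl2c2 made up 26.1%, 31% and 33.1% of the sum in Val+PA, 33.1%, 33.8% and 32.1% in Valine and 38.9%, 42.4% and 32.6% in Control. These shares overlapped between Control and the treated groups, with Control 3 alone among the treated values. With 50.9% of read-length stretches of Prl2c2 shared with another gene, part of this share rests on the counting.

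**Figure D2:**
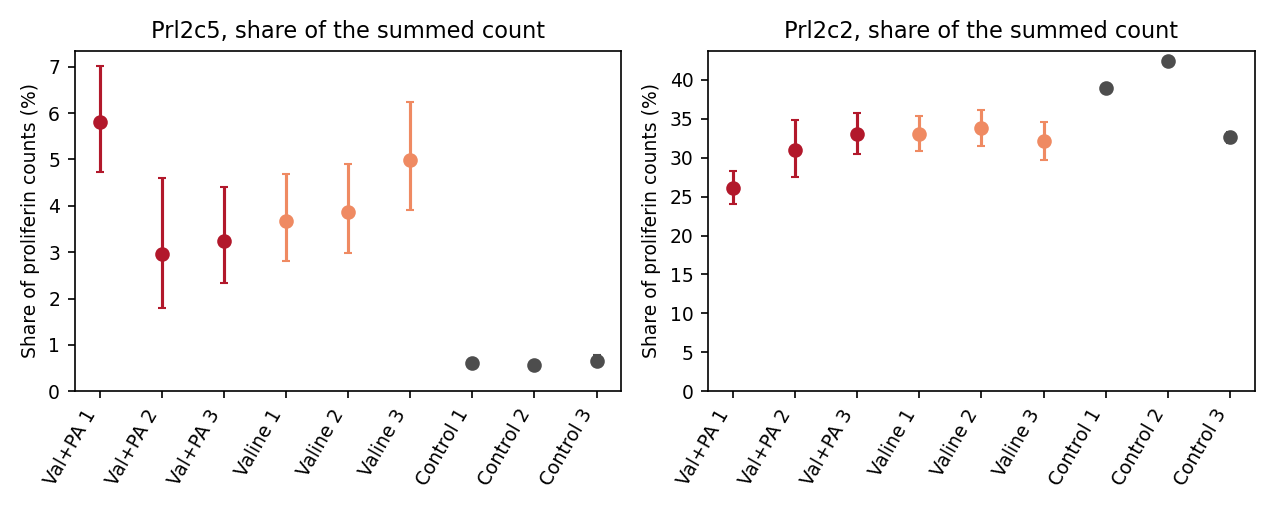
Share of Prl2c2 and of Prl2c5 in the summed proliferin count of each library, in percent, with exact 95% binomial intervals that cover counting error only. The Prl2c5 share is 2.96% to 5.81% in Val+PA and 3.67% to 4.99% in Valine, above the 0.557% to 0.653% of Control.

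Palmitic acid with valine was set beside valine alone, the comparison that the choice of genes did not use directly. These groups also differed in the hours of valine, 24 h in Val+PA and 36 h in Valine. Palmitic acid, valine time and plate therefore cannot be told apart here. The mean summed level was 35 ± 13.2 CPM with palmitic acid (Val+PA) and 45.3 ± 3.29 CPM with valine alone (SD, n = 3 each). The log2 fold change was -0.37 (SE 0.27, 95% interval -0.91 to 0.16) and it missed the threshold of edgeR's quasi-likelihood test, with a Benjamini-Hochberg adjusted p = 0.523 over all genes. The interval allows a level nearly 2-fold lower as well as one slightly higher, and so does not show that the groups are alike. Prl2c2 gave -0.53 (SE 0.31, interval -1.14 to 0.08) with an edgeR quasi-likelihood adjusted p = 0.449, and Prl2c3 gave -0.3 (SE 0.26, interval -0.8 to 0.2) with 0.581. Prl2c5 gave -0.29 (SE 0.4, interval -1.07 to 0.5) with an adjusted p = 0.744. Of all genes tested, 0% passed in this comparison, although 2428 (13.2%) had an unadjusted p below 0.05 and DESeq2 called 212. The values of Prl2c2 did not overlap between Val+PA and Valine and were lower in Val+PA, which was so for 12% of all genes tested, while those of Prl2c3 and Prl2c5 overlapped.

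Val+PA 2 carried much of this difference. It had 20.5 CPM of summed proliferin, against 46.3 and 38.1 CPM in the other Val+PA libraries and 41.7 to 48.2 CPM in Valine. Without Val+PA 2 the log2 fold change was -0.1 (edgeR quasi-likelihood adjusted p = 0.929), and without Val+PA 1 it was -0.63 (adjusted p = 0.207). The replicates spread unevenly, with a coefficient of variation of the sum of 37.6% in Val+PA, 7.27% in Valine and 32.6% in Control. For Valine against Control, leaving out Control 3 gave a log2 difference of -4.92, and leaving out both Control 3 and Val+PA 2 gave -4.91 for Valine and -5.02 for Val+PA. The difference from Control was thus about as large without the libraries that stood apart.

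Another 23 genes of the prolactin family, which in the mouse are mostly placental hormones, were nearly silent. None had enough counts to be tested, and 13 had no count in any library. All 23 together had 0 to 9 counts per library in Val+PA, 3 to 6 in Valine and 19 to 25 in Control. Prl7d1, which encodes the proliferin-related protein, an inhibitor of blood vessel growth, had 3, 3 and 5 counts in Control and 0 in every Valine and Val+PA library. Prl2c1, another gene of the same subfamily, had at most 2 counts in a library. None of these 23 had more than 14 counts in any library, the highest being Prl7a1 in Control 2.

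The protein-coding genes around the copies did not share one direction. Of 13 protein-coding neighbours within 1 Mb, 11 were tested, and Actn2 and Edaradd were not. In Valine against Control 4 rose and 3 fell (edgeR quasi-likelihood, adjusted p below 0.05), beside 20.8% and 21.1% of all genes tested (41.9% in either direction). In Val+PA against Control 3 rose and 2 fell, beside 20.4% and 18.8% of all genes (39.2% in either direction). The 4 that rose in Valine were Lgals8, Lyst, Gng4 and B3galnt2, and the 3 that fell were Heatr1 (-0.78), a factor of ribosome production, Nid1 (-0.53), a basement membrane protein, and Gpr137b (-0.32). The median log2 fold change of the 11 was 0.24, against -0.005 over all genes, and the range was -0.78 to 1.45. Mtr (0.24), Ero1lb (0.24), Ggps1 (0.27) and Tbce (-0.15) did not pass, and none of the 11 came near the values of Prl2c2 and Prl2c3. Single calls rest on few libraries, since Lgals8 missed the threshold without any 1 of Control 1, Control 3, Valine 1, Valine 2, Valine 3 or Val+PA 3, Gpr137b without Control 2 or any Valine library, Gng4 without Valine 3 and B3galnt2 without Control 1.

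Of 14 further annotated genes tested within 1 Mb, all pseudogenes or non-coding RNAs, 6 fell and none rose in Valine against Control, beside 21.1% and 20.8% of all genes, with a median of -0.35. In Val+PA against Control 5 fell and 1 rose, beside 18.8% and 20.4%. Besides Gm7040 and Gm48544, the genes that fell in Valine were Gm48455 (-2.52), Gm48682 (-1.89), Gm7446 (-1.58) and Gm47882 (-0.74), all but Gm47882 with under 1 CPM on average in Control. Gm48455 and Gm48544 passed the filter on low counts through the Control libraries alone, and Gm48682 is antisense, so that its reads may belong to the other strand. The call of Gm7446 was lost without Control 3 or any 1 Valine library. Gm7040 and Gm48544 were picked after their values were seen and are described without a test. The 6 falls in Valine and the 5 in Val+PA include them, and also genes that passed the filter through Control. These counts are therefore a description and give no result about the region as a whole. Gm7040, an unprocessed pseudogene at 13320941 to 13323370 on the minus strand, 129 kb from Prl2c5, had 25, 2 and 28 counts in Val+PA, 14, 18 and 3 in Valine and 633, 1165 and 213 in Control. Its fitted log2 difference was -6 for Valine against Control (SE 0.67). Of the words of 31 bases in its transcript, 282 of 413 (68.3%) also occur in a proliferin transcript, so that its counts and those of the copies may share reads. Gm7040 came to 0.312% to 2.27% of the proliferin sum in Val+PA, 0.211% to 1.08% in Valine and 1.11% to 2.31% in Control. Gm48544, a long non-coding RNA gene at 13034858 to 13038936 on the plus strand between Prl2c2 and Prl2c5, had 2, 1 and 0 counts in Val+PA, 0, 3 and 0 in Valine and 23, 34 and 29 in Control. Its fitted log2 fold change was -4.92 in Valine against Control (SE 0.73), a size that rests on 3 counts in Valine.

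**Figure D3:**
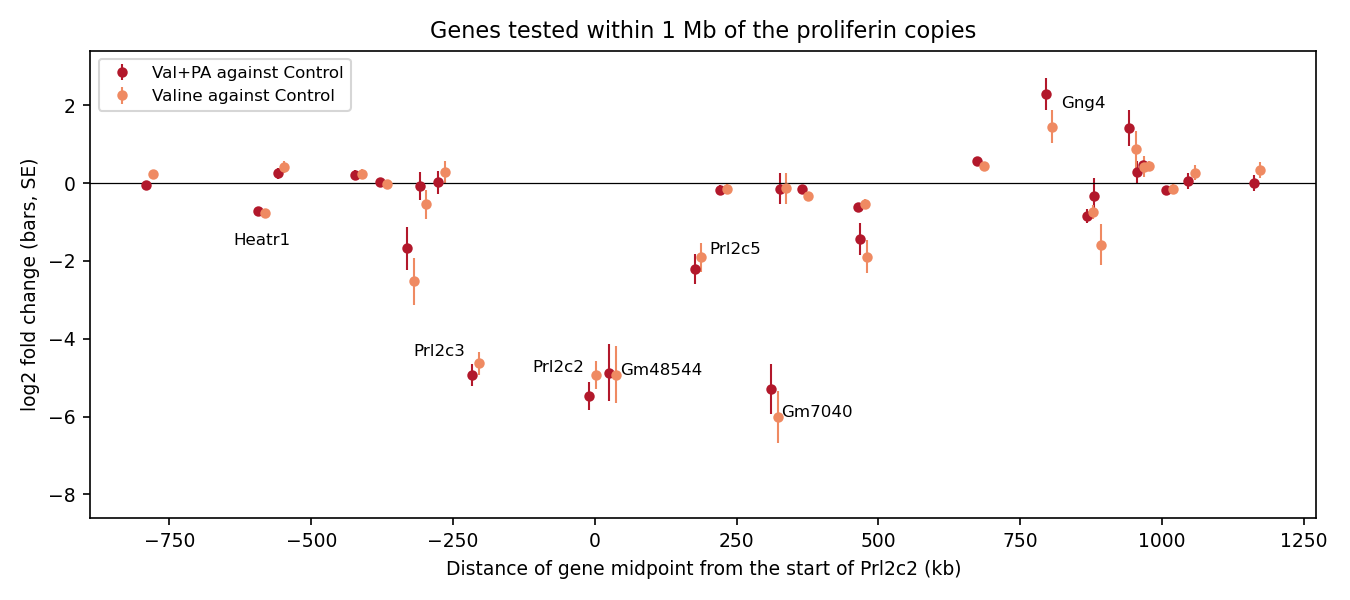
Fold changes against Control, on the log2 scale with SE bars, of genes tested within 1 Mb of the proliferin copies, placed by the distance of their midpoint from the start of Prl2c2 in kb. Prl2c2, Prl2c3, Gm48544 and Gm7040 lie at -4.63 or lower, and the protein-coding neighbours lie at -0.78 or higher in Valine against Control.

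The gene of the receptor that proliferin binds was higher in the groups with less proliferin RNA. Igf2r, which encodes the mannose 6-phosphate receptor, averaged 132 ± 18.8 CPM in Val+PA, 158 ± 4.47 CPM in Valine and 64.5 ± 3.53 CPM in Control (SD, n = 3 each). It rose in Valine against Control by a log2 fold of 1.3 (SE 0.11, edgeR quasi-likelihood adjusted p = 3.99e-06). Prlr, the prolactin receptor, had too few counts to be tested. Of the 9 tested genes of prolactin-type receptors and signalling 4 rose and none fell in Valine against Control, where 20.8% of all genes rose and 21.1% fell, with a median of 0.12 against -0.005 over all genes. In Val+PA against Control, where 20.4% of all genes rose and 18.8% fell, 5 rose and none fell. Besides Igf2r these were Ghr, the growth hormone receptor (1.37), Socs2 (1.78) and Cish (1.26), feedback inhibitors induced by STAT5, and in Val+PA against Control also Socs3. Jak2, Stat5a, Stat5b and Socs1 passed in neither comparison. The call of Cish in Valine was lost without Control 1 (adjusted p = 0.0658) or Valine 3 (0.0766).

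The subunits of AP-1, the factor whose letters stand in the Prl2c3 promoter above, went both ways. Fos had 18, 8 and 22 counts in Val+PA, 25, 11 and 14 in Valine and 103, 87 and 78 in Control, and Fosl1 had 61, 58 and 58 in Val+PA, 55, 57 and 34 in Valine and 253, 236 and 129 in Control. Both were lower in every treated library than in every Control library. Such a gap was common, at 29.2% of all genes tested in Valine against Control and 22.1% in Val+PA against Control. In Valine against Control Fos fell by 2.67 as a log2 fold (SE 0.33, edgeR quasi-likelihood adjusted p = 5.85e-05) and Fosl1 fell by 2.3 (SE 0.23, adjusted p = 9.8e-06). Fosb (-1.23) and Junb (-0.67) also fell, Fosl2 (0.49) and Atf3 (1.06) rose, and Jun (-0.04) and Jund (0.22) did not pass. Batf and Batf3 were too low to test. That made 2 higher and 4 lower of 8 in Valine, beside 20.8% and 21.1% of all genes, with a median of -0.36. In Val+PA against Control 3 were higher and 2 lower, beside 20.4% and 18.8% of all genes, with a median of -0.02. Fosb was not called without Valine 2 or Valine 3, and Jund was called without Control 3.

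Among 9 further transcription factors tied to growth signals, glucocorticoids or placental genes, 1 rose and 7 fell in Valine against Control, beside 20.8% and 21.1% of all genes, with a median of -0.68. In Val+PA against Control 1 rose and 5 fell, beside 20.4% and 18.8%, with a median of -0.54. Egr1, an immediate early factor, averaged 9.03 CPM in Val+PA, 7.11 CPM in Valine and 36.4 CPM in Control and fell by 2.35 in Valine (SE 0.16, edgeR quasi-likelihood adjusted p = 6.48e-07). Gata2 (-1.08) and Gata3 (-0.68), the GATA factors of trophoblast, fell in Valine, as did Etv4 (-1.13), Srf (-0.86), Elk1 (-0.52) and Ets1 (-0.32). Nr3c1, the glucocorticoid receptor, was the gene that rose in Valine, by 0.5, and did not pass in Val+PA against Control (0.23). Ets2 was the gene that rose in Val+PA against Control, by 0.33, and did not pass in Valine (0.08). The call of Gata3 was lost without any 1 of Control 1, Control 2, Valine 2, Valine 3, Val+PA 1 or Val+PA 3, that of Ets1 without Control 1 or any Valine library, and that of Nr3c1 without Valine 1.

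**Figure D4:**
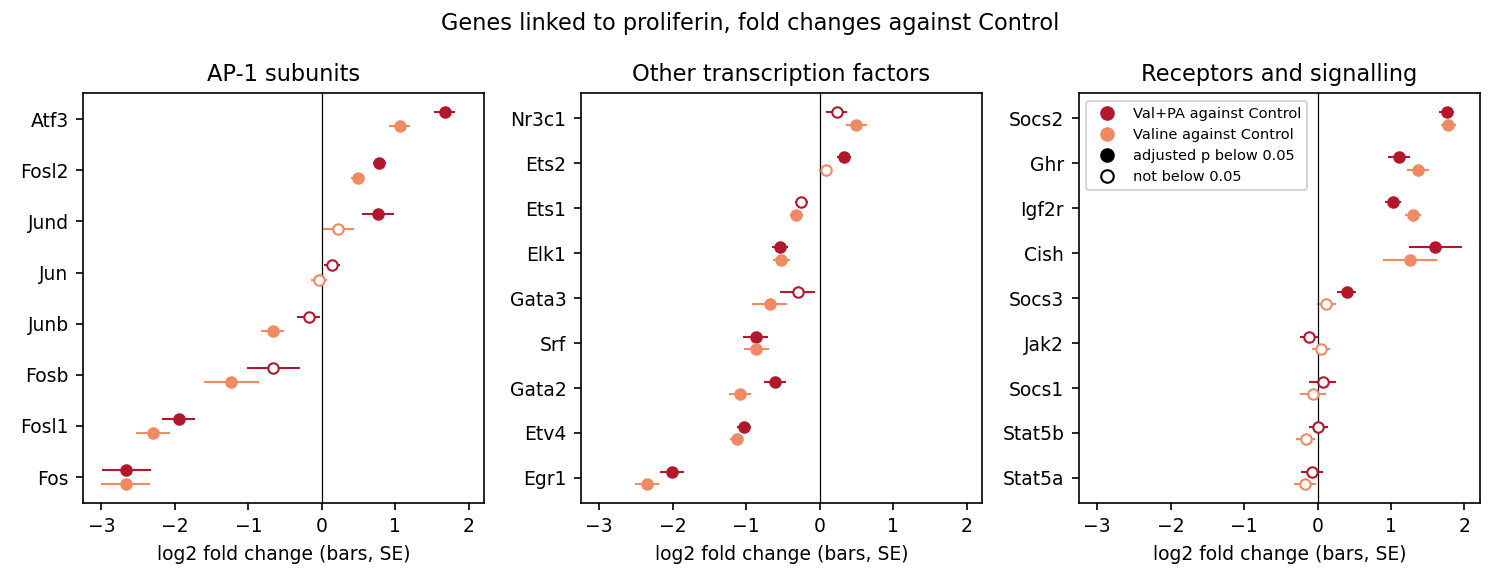
Log2 fold changes with SE bars of AP-1 subunits, further transcription factors and receptor and signalling genes, for Val+PA against Control and Valine against Control. Filled points passed the edgeR test at an adjusted p below 0.05, with Fos, Fosl1 and Egr1 at -1.95 or lower in both and Socs2 near 1.78.

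Of 14 growth factors and growth factor receptors, the kind of signal that induces proliferin in fibroblasts, 2 rose and 7 fell in Valine against Control, beside 20.8% and 21.1% of all genes, with a median of -0.43. In Val+PA against Control 2 rose and 2 fell, beside 20.4% and 18.8%, with a median of 0.03. The largest falls in Valine were those of Fgfr2 (-1.49), Tgfa (-1.09) and Fgfr1 (-0.81), and Fgfr4 (2.93) and Fgf2 (0.61) rose. Fgfr4 had 49, 45 and 37 counts in Valine and 4, 2 and 8 in Control, so the size of its rise rests on few Control counts. Egfr, the highest of the uncalled genes, had a log2 fold change of 0.36 in Valine and an edgeR quasi-likelihood adjusted p = 0.0863. The number lower in Valine dropped to 4 without Control 3, Valine 2 or Valine 3, and Egfr was called without Control 2. The call of Fgf2 was lost without Control 3 (edgeR quasi-likelihood adjusted p = 0.0655), Valine 1 (0.0713) or Valine 3 (0.0517). Whether any of these genes has a part in the lower proliferin level was not tested.

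The genes most like summed proliferin over the 9 libraries were found by the root mean square difference of log2 levels, each centred on its own mean, among 12345 genes. The closest were B930036N10Rik and Tfrc, both at 0.58, where the proliferin profile itself has a size of 2.33. Tfrc, the transferrin receptor that takes up iron, averaged 20.2 CPM in Val+PA, 23.9 CPM in Valine and 343 CPM in Control. Serpinb9e (0.74), a serine protease inhibitor of a family with near-identical copies, and Nptx1 (0.81), a neuronal pentraxin, came next. Gm7040 (0.89), Ccne2 (0.9), a cyclin of DNA replication onset, Tinagl1 (0.92), Gm14636 (0.92), Nrcam (0.94) and Cdc6 (0.97), a replication licensing factor, made up the 10. Within Control the profiles parted, since Tfrc was highest in Control 3, at 405 CPM against 270 and 353 CPM in the other Control libraries, where proliferin was lowest, while Serpinb9e at 10.8 CPM was lowest there too.

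**Figure D5:**
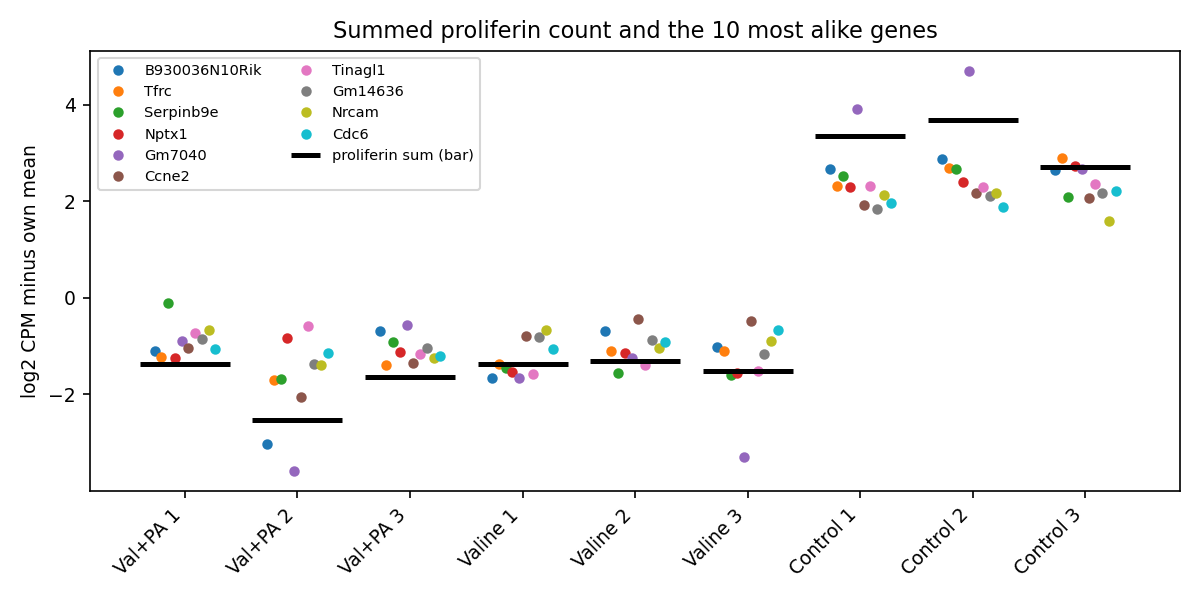
Level of the summed proliferin count (black bars) and of the 10 genes most like it (points) in each library, as log2 CPM minus the gene's own mean, with Val+PA left, Valine in the middle and Control right. All 11 profiles are high in Control, and the proliferin bar reaches 3.69 in Control 2.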

How the data were processed

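RNA from 9 libraries was made from total RNA with a kit described as strand-specific and sequenced as paired ends, per the labels' protocols. The submitters' processing notes name HISAT2, featureCounts, DESeq2 and the build GRCm38, with no version or setting. Not given in the sources used here are the strand setting, which bears on Nid1 and other genes with an antisense partner, and the treatment of reads that match several genes. One deposited table gives raw counts, as whole numbers of reads for every gene and library. The deposited signal table holds the authors' values per gene length and library factor, used here for levels between genes and as an alternative unit.

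GENCODE M21 gave a symbol to 52093 of 53700 IDs (97%). Counts were filtered by filterByExpr, which left 18415 genes, scaled by TMM and put into 1 quasi-likelihood fit of all 9 libraries (edgeR 4.0.16, R 4.3.3), with group means as terms and 6 residual degrees of freedom. Tests were two-sided with Benjamini-Hochberg adjustment over all genes at 0.05. The proliferin sum replaced its 3 rows, leaving 18413 genes. Each SE was derived from the F statistic, as the size of the log2 fold change over the root of F. The fit was checked on simulated counts. Sequences were aligned with Biopython 1.88.

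The genes and lists were chosen with earlier results of these data known. The text names the 3 copies, the tested members of the signalling, AP-1, transcription factor, growth factor and protein-coding neighbour lists (for the growth factors, over 12 genes, the 3 largest called changes each way and the highest uncalled gene), the 10 most alike genes and the 5 largest falls with a mean of at least 2 CPM. The further annotated genes within 1 Mb and mt-Co1 were picked outside this rule, after their values were seen. So were single cell type markers, such as Peg10, Des, Itga7 and Krt14, and Prl7d1, Prl2c1 and Prl7a1 of the family. Alternatives were other scaling factors, filters, tools, groups and units, a replicate block and leaving out libraries. One, adding Gm7040 to the sum, was chosen after seeing the data.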

Additional observations from a re-analysis of the deposited data

How the results depend on the processing

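The summed proliferin level kept its direction in all 22 alternatives for Valine against Control, at log2 differences of -4.92 to -4.45, a range set by leaving out 1 library at a time. Val+PA against Control ran from -5.32 to -4.79. Val+PA against Valine passed in none of 25 alternatives and ran from -0.63 to -0.1, with adjusted p of 0.0893 to 0.929. Prl2c2 passed in that comparison with no filter on low counts (edgeR quasi-likelihood adjusted p = 0.00945). The genes called between Val+PA and Valine numbered 763 with no filter, 212 with DESeq2 and 604 without Control 3 and Val+PA 2 together, against 0 in the fit reported. Leaving out 1 library gave 5796 to 9244 calls for Valine against Control and 6043 to 7863 for Val+PA against Control. Same-numbered libraries showed no clear shared variation (correlations of -0.41 to 0.24). With 3 libraries per group, and Control 3 and Val+PA 2 standing apart, these correlations cannot exclude a pairing by replicate number. A replicate block gave -4.68 for Valine against Control, -5.06 for Val+PA against Control and -0.38 for Val+PA against Valine (adjusted p = 0.534), with 7369, 6935 and 0 genes called. Per unshared base, the mean Prl2c5 share was 2.06% in Val+PA, 2.14% in Valine and 0.307% in Control, against 4.01%, 4.17% and 0.61% of counts as deposited, and the Prl2c2 share in Valine was 34.6% against 33%. The cause was not tested beyond the weighting itself. The depth limits Prl2c5 in Val+PA 2 most, where 19 counts have an exact 95% Poisson interval of 11.4 to 29.7.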
